A study of Mus musculus with 11 samples.

Results

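The 34 genes described here mark the cells of the vessel wall: endothelial cells, pericytes and vascular smooth muscle. They were taken by gene symbol from the deposited count table, which held 30681 genes, and all 34 were found. Of these 22 are endothelial, 8 pericyte and 4 smooth muscle genes. All 34 also passed the filter on low counts that left 16587 genes, with at least 43 reads for each in every library. The series measured polyadenylated RNA from 1 hippocampus per library, from mice aged 6 months. There were 6 libraries from mice with a conditional knockout of Dclk3 (cKO), a doublecortin-like kinase gene, and 5 from wild-type (WT) mice. No source used here names the recombinase or the deleted exons. Nothing states that each library is a separate animal, so the spread behind the p-values may be partly technical.

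Levels are read counts scaled to library size (CPM). Dclk3 itself stood at 20.1 ± 3.44 CPM in those labelled cKO, against 22.4 ± 3.31 CPM in WT (mean ± SD, n = 6 and 5), which did not pass the test, so the group is called by its label. By Xist and Y-linked transcripts all 6 libraries labelled cKO were male, while WT replicates 1, 3 and 4 were female and WT replicates 2 and 5 male. The genotype labels can be compared within the same sex only in the 8 male libraries. Values from those are given beside the genes and lists the results turn on. Total counts ran from 24001828 to 35674490 per library. In bulk tissue, fewer cells of a type and less RNA per cell cannot be told apart.

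Brain capillaries are tubes of endothelial cells sealed by tight junctions, which together with selective transporters and a low rate of vesicle transport form the blood-brain barrier. Pericytes sit in the capillary basement membrane and are recruited by PDGF-B from the endothelium acting on the receptor PDGFR-beta. On arterioles their place is taken by smooth muscle cells, whose actin and myosin set the vessel diameter.

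Levels per length differed widely among the genes. Bsg, which encodes basigin, a chaperone of lactate transporters that neurons and glia also express, was highest at 231 ± 17.5 CPM per kilobase of exon (SD, 11 libraries). Itm2a, a membrane protein gene of brain endothelium, followed at 40.04 ± 3.38 CPM per kilobase, then Cldn5 at 34.7 ± 4.45, Rgs5 at 31.9 ± 2.174 and Vtn at 31.4 ± 3.52 CPM per kilobase. Each of these 4 overlaps its neighbour in the order within 1 SD. At the low end stood Vwf at 0.752 ± 0.127, Des at 0.668 ± 0.102 and Anpep at 0.609 ± 0.120 CPM per kilobase, again with overlapping ranges. Of the 33 pairs of neighbours in the order, 26 overlapped within 1 SD.

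**Figure D1:**
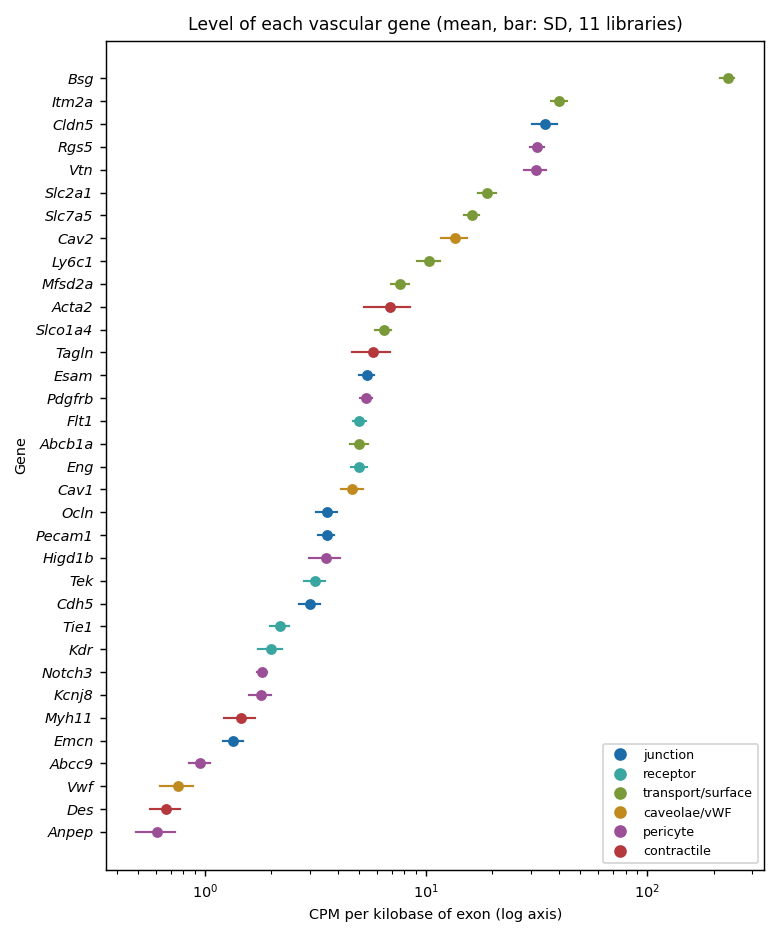
Level of each of the 34 genes in CPM per kilobase of exon (log axis), as the mean over 11 libraries with bars of 1 SD, coloured by role. Bsg stands alone at 231 CPM per kilobase, and Anpep is lowest at 0.609.

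Much of the variation ran through whole libraries. WT replicate 4 held the highest level of 15 of the 34 genes and replicate 6 labelled cKO that of 8. Over all genes tested these libraries were highest for 9.70% and 12.3%. For the 22 endothelial genes the mean log2 CPM, centred on each gene's average over the 11 libraries, was 0.14 in replicate 6 labelled cKO, 0.16 in WT replicate 4, and -0.11 to 0.052 in the other 9 libraries. One library of each group thus stood high for the endothelial genes as a group. The median coefficient of variation over the 11 libraries was 9.63% for the endothelial genes and 13.3% for the pericyte and smooth muscle genes, beside 9.28% for all genes tested. Acta2 varied most at 23.7% and Notch3 least at 5.09%.

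**Figure D2:**
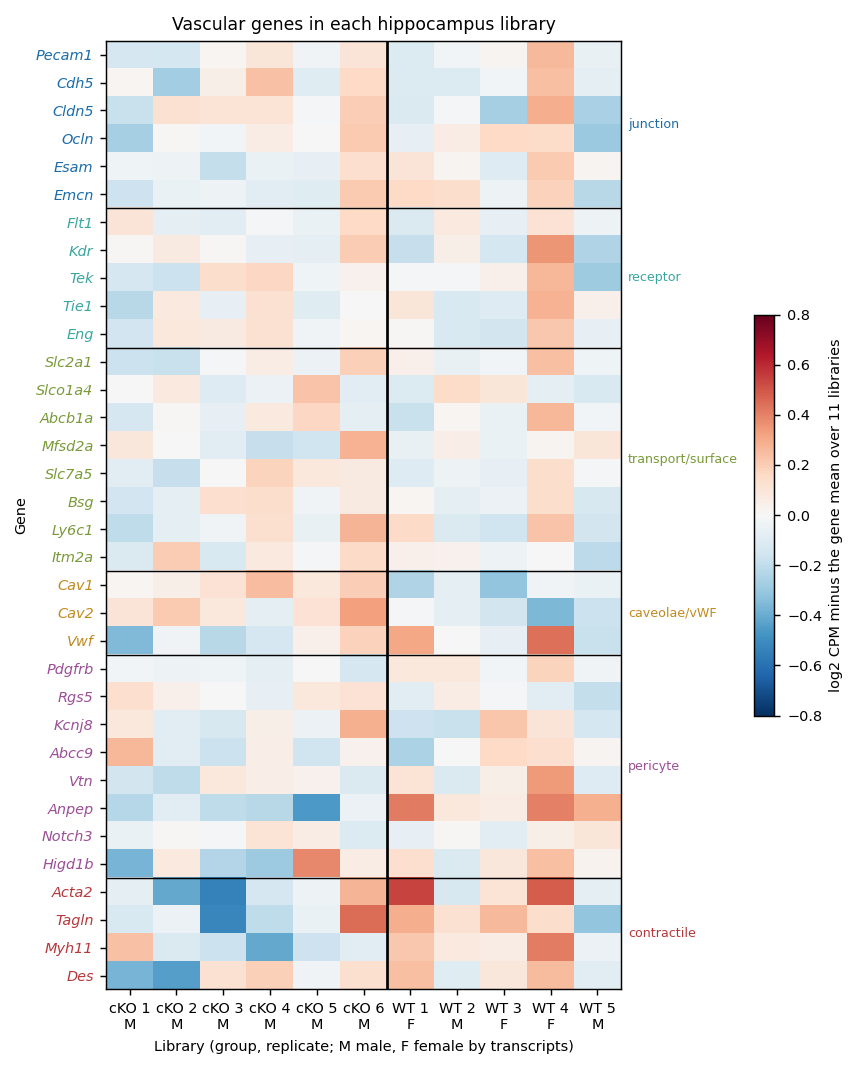
Log2 CPM of each of the 34 genes (rows, coloured by role) in each library (columns, cKO left and WT right), minus the gene's mean over the 11 libraries. WT replicate 4 and replicate 6 labelled cKO are above the mean for most endothelial genes, and the widest departures are those of Acta2 and Tagln.

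The comparison the labels imply is that of the libraries labelled cKO with WT. No vascular gene passed the test over all genes, nor did any other gene (edgeR's quasi-likelihood test, Benjamini-Hochberg adjusted, 0% of 16587 called). DESeq2 called 0 of the 34 and 0.278% of all genes. An unadjusted p under 0.05 was reached by 7 of the 34, and by 9.19% of all genes. Of the 34, 4 of the 34 (11.8%) were lower in the libraries labelled cKO, where 5.35% of all genes were, and 3 of the 34 (8.82%) were higher, where 3.84% of all genes were. The lower ones were Anpep, Myh11, Acta2 and Pdgfrb, all listed here as pericyte or smooth muscle genes. The higher ones were Cav1 and Cav2, listed as endothelial, and Rgs5, listed as a pericyte gene. In the 8 male libraries 2 of these 7, Cav2 and Anpep, kept an unadjusted p under 0.05, a share of the 34 near that of all genes there (5.58%). The median log2 fold change, the libraries labelled cKO over WT, was -0.0095 over the 34 genes and -7.9e-05 over all genes tested, of which 50.0% were lower. It was 0.011 for the endothelial genes (10 of 22 lower and 12 higher) and -0.12 for the pericyte and smooth muscle genes (10 of 12 lower and 2 higher). In the 8 male libraries the endothelial median was 0.079, with 4 of 22 lower, and the mural one -0.0048, with 7 of 12 lower, beside 0.0050 for all genes.

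**Figure D3:**
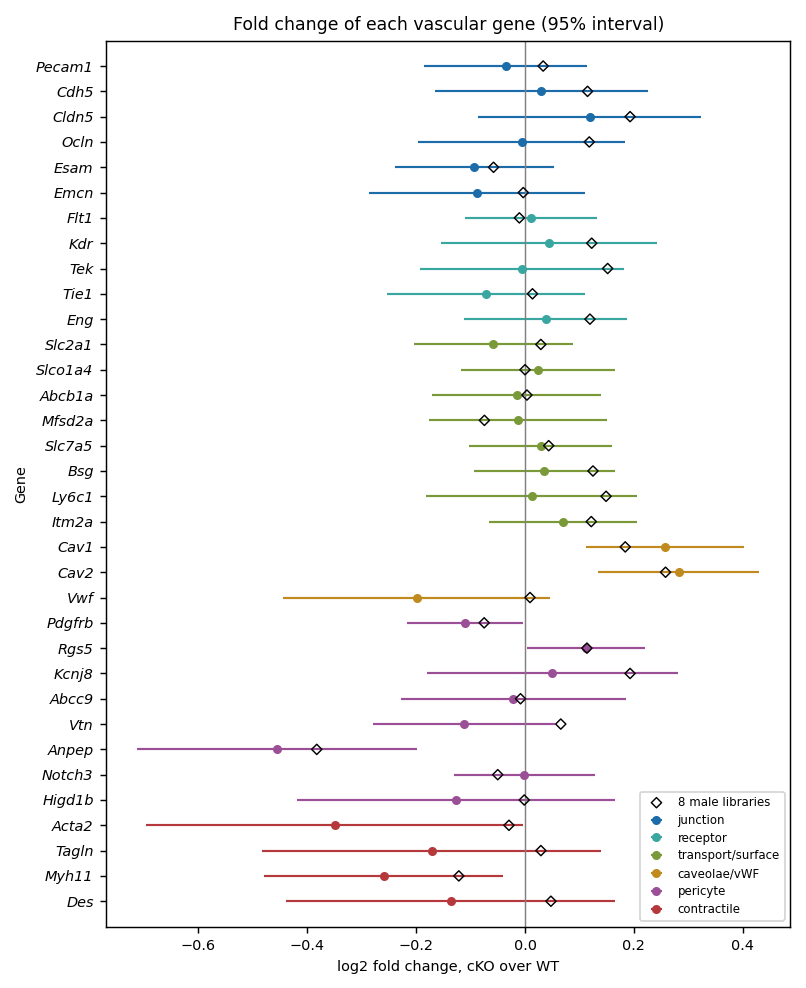
Log2 fold change of each gene, the libraries labelled cKO over WT, with its 95% interval (coloured by role), and the same from the 8 male libraries (open diamonds). The intervals of 27 of 34 genes span 0. Anpep lies farthest below 0 and Cav2 farthest above, and the contractile genes have diamonds nearer 0 than their 11-library values.

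No junction gene differed between the groups beyond its spread with all 11 libraries. Cldn5 encodes claudin-5, the main claudin of the barrier. It had 43.1, 53.1, 52.7, 52.7, 48.4 and 56.0 CPM in replicates 1 to 6 labelled cKO, against 45.1, 48.6, 40.6, 59.8 and 40.8 CPM in WT replicates 1 to 5. The ranges overlapped, with WT holding both the highest and the lowest library. The log2 difference was 0.12 ± 0.10 (± SE), its 95% interval -0.086 to 0.32 (edgeR, adjusted p = 0.742). In the 8 male libraries it was 0.19 ± 0.097 (± SE; edgeR, adjusted p = 0.854). With WT replicate 4 left out, Cldn5 reached an unadjusted p under 0.05 by edgeR but did not pass. Of the other 5 genes of the group, Ocln, which encodes occludin, was at -0.0061 ± 0.090, Pecam1, an adhesion molecule of endothelial contacts, at -0.035 ± 0.071, Cdh5, the cadherin of adherens junctions, at 0.030 ± 0.093, Esam, another adhesion molecule, at -0.093 ± 0.069, and Emcn, a surface sialomucin, at -0.088 ± 0.094 (log2 ± SE). The 95% intervals of the 6 genes lay between -0.29 and 0.32 (log2).

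None of the receptors that steer vessel growth differed beyond its spread. Flt1 encodes VEGFR-1, which binds VEGF-A tightly and limits its signal. It had 72.4, 63.9, 63.3, 66.9, 64.8 and 75.3 CPM in replicates 1 to 6 labelled cKO, against 62.2, 71.3, 64.4, 73.1 and 65.4 CPM in WT replicates 1 to 5. These ranges cover almost the same span, with a log2 fold change of 0.010 ± 0.057 (± SE; edgeR, adjusted p = 0.974). Kdr, the main signalling VEGF receptor VEGFR-2, was at 0.045 ± 0.094, and Eng, a co-receptor for TGF-beta family ligands, at 0.038 ± 0.071 (log2 ± SE). Tek encodes the angiopoietin receptor TIE2 and was at -0.0055 ± 0.089, and its partner Tie1 at -0.072 ± 0.086 (log2 ± SE). No interval of the 5 receptors reached beyond 16.1% lower or 18.3% higher.

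Transporters and surface proteins of the barrier gave no difference beyond spread either. Bsg had 377, 397, 459.9, 462, 410.4 and 441 CPM in replicates 1 to 6 labelled cKO and 424, 397, 406, 461 and 383 CPM in WT replicates 1 to 5, with overlapping ranges and a log2 fold change of 0.035 ± 0.061 (SE; edgeR, adjusted p = 0.902). Slc2a1, the glucose transporter GLUT1, was at -0.058 ± 0.069, Slc7a5, the large neutral amino acid transporter LAT1, at 0.029 ± 0.062, and Slco1a4, an organic anion transporter, at 0.024 ± 0.067 (log2 ± SE). Abcb1a, the drug efflux pump P-glycoprotein, was at -0.015 ± 0.074, and Mfsd2a, which carries lysophospholipids and keeps transcytosis low, at -0.013 ± 0.078 (log2 ± SE). The remaining pair, Ly6c1, a surface antigen, and Itm2a, were at 0.012 ± 0.092 and 0.070 ± 0.064. Over the 8 genes adjusted p ran from 0.781 to 0.982, and the intervals stayed within 13.2% lower and 15.4% higher. Abcb1a and Ly6c1 have close copies (Abcb1b and Ly6c2), so their counts are uncertain by whatever reads the counting shared. Abcb1b stood at 4.76 ± 0.625 CPM in those labelled cKO, against 5.29 ± 0.414 CPM in WT (mean ± SD, n = 6 and 5).

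The caveolin genes had the highest fold changes of the 34. Cav1 and Cav2 encode coat proteins of caveolae, the membrane pits whose number is kept low in barrier endothelium, and both are also expressed by other cells. They lie next to each other in the build mm10, Cav2 at chromosome 6, 17281185 to 17289115, plus strand, and Cav1 at chromosome 6, 17306335 to 17341452, plus strand, with 17219 bases between them. Both had higher means in the libraries labelled cKO, though neither passed the test, and whether they are regulated together was not tested. The 250 bases before the start of each are shown from RefSeq (GRCm38.p6), 5′ to 3′ along each gene. Capitals mark the GC box (GGGCGG, or CCGCCC on the other strand).
Cav2 (chr6:17280935-17281184, plus strand): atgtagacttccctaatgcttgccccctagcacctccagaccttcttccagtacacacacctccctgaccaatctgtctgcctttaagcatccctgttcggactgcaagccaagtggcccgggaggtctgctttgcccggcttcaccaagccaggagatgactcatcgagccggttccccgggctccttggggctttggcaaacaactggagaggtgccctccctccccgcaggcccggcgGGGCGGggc
Cav1 (chr6:17306085-17306334, plus strand): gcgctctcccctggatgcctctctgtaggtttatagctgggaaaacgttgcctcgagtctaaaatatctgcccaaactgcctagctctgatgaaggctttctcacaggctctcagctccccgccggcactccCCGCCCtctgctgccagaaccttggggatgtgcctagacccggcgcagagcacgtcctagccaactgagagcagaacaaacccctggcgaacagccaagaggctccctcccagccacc
Each window holds 1 GC box, beginning 9 bases before the start of Cav2 and 118 before that of Cav1. Among all 32851 RefSeq windows of this length 32.7% hold one, so the match is common.

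Cav2 had 48.3, 51.8, 47.6, 42.5, 48.5 and 56.4 CPM in replicates 1 to 6 labelled cKO, against 44.4, 42.6, 40.5, 34.9 and 39.8 CPM in WT replicates 1 to 5. Only replicate 4 labelled cKO lay within the WT range. The mean was 49.2 ± 4.63 CPM in those labelled cKO, against 40.4 ± 3.58 CPM in WT (mean ± SD, n = 6 and 5), giving a log2 fold change of 0.28 ± 0.070 (± SE), with 95% limits of 0.13 to 0.43 (edgeR, adjusted p = 0.346). Cav1 had 16.1, 16.5, 17.2, 18.9, 16.9 and 18.2 CPM in replicates 1 to 6 labelled cKO, against 13.5, 15.2, 12.8, 15.6 and 15.3 CPM in WT replicates 1 to 5. Every library labelled cKO was above every WT library, as for 0.404% of all genes tested, but the gap between the groups was narrow. The log2 fold change of Cav1 was 0.26 ± 0.068 (± SE), with 95% limits of 0.11 to 0.40 (edgeR, adjusted p = 0.349). In the 8 male libraries Cav2 was at 0.26 and Cav1 at 0.18 (log2), and neither passed there. In WT replicate 4, where 11 of the 22 endothelial genes peaked, Cav2 had its lowest level, while Cav1 had its highest WT level. Vwf, the clotting factor that endothelial cells of larger vessels store, was at -0.20 ± 0.12 (log2 ± SE) and at 0.0092 in the male libraries.

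Pericyte genes went in both directions. Anpep, the surface peptidase CD13 of pericytes, is also expressed by fibroblasts and macrophages around vessels. Its levels were 2.11, 2.33, 2.16, 2.12, 1.80 and 2.39 CPM in replicates 1 to 6 labelled cKO, against 3.30, 2.62, 2.58, 3.28 and 3.02 CPM in WT replicates 1 to 5. Every library labelled cKO was below every WT library, as for 0.512% of all genes tested. That is a log2 fold change of -0.46 ± 0.12 (± SE), with 95% limits of -0.71 to -0.20 (edgeR, adjusted p = 0.349), and -0.38 in the 8 male libraries. Rgs5 encodes a regulator of G-protein signalling that marks brain pericytes. It had 159, 149, 144, 138, 153 and 157 CPM in replicates 1 to 6 labelled cKO and 136, 151, 144, 136 and 127 CPM in WT replicates 1 to 5. The ranges overlapped, with a log2 fold change of 0.11 ± 0.051 (± SE; edgeR, adjusted p = 0.522), and of 0.11 in the male libraries.

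The windows before the starts of Rgs5 and Anpep, the pericyte genes farthest from 0 in each direction, are those of 1 RefSeq start each and differ in base composition, with 53.6% G and C for Rgs5 and 72.8% for Anpep. They are given as for the caveolins, from RefSeq (GRCm38.p6), with the GC box in capitals.
Rgs5 (chr1:169655251-169655500, plus strand): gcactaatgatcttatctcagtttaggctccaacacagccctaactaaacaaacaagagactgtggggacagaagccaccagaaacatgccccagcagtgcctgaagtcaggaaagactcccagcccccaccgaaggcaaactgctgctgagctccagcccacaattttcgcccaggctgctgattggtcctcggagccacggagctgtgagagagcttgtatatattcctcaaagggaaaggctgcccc
Anpep (chr7:79848211-79848460, minus strand): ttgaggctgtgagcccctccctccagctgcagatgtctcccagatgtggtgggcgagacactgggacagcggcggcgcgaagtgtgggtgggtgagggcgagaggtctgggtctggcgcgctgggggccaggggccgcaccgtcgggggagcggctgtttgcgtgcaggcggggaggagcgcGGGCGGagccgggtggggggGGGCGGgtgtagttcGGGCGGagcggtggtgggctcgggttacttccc
Anpep has 3 GC boxes here and Rgs5 none. The Anpep window lies before a start inside the gene as annotated, whose outermost 5′ end is 12849 bases further upstream. RefSeq windows were at hand for 24 of the 34 genes, of which 12 hold a GC box, beside 32.7% of all windows. The 24 genes have 27 windows, and a gene counts if any of its windows holds the letters. Counts of genes and shares of windows are therefore unlike units. The CArG box, the site of serum response factor in contractile genes, was searched only in the strict form CCWWWWWWGG, where W is A or T. Forms with G or C among the middle letters were not searched for, so a gene without a match may still hold a site. The strict form was found in 1.47% of all windows and in 0 of the 24 genes. The 24 include Acta2 and Des but not the contractile genes Myh11 and Tagln. The letters GTGGGAA, a form of the site of the Notch partner RBPJ, were found in 5.42% of windows and in 2 of the 24, Kdr and Tie1. Both strands were searched.

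Pdgfrb, the receptor that recruits pericytes (chromosome 18, 61045150 to 61085061, plus strand), had 29.0, 28.6, 28.7, 28.0, 29.5 and 26.9 CPM in replicates 1 to 6 labelled cKO, against 31.2, 31.2, 29.0, 33.3 and 28.8 CPM in WT replicates 1 to 5. WT replicates 3 and 5 fell within the range of the libraries labelled cKO. It was -0.11 ± 0.051 on the log2 scale (± SE; edgeR, adjusted p = 0.523), opposite in sign to that of Rgs5 and smaller in the male libraries (-0.075). Kcnj8 and Abcc9 encode the pore and the regulatory subunit of the pericyte ATP-sensitive potassium channel, and stood at 0.050 ± 0.11 and -0.021 ± 0.10 (log2 ± SE). Notch3, the Notch receptor of mural cells, was at -0.0014 ± 0.061 (log2 ± SE), the value nearest 0 of the 34. Vtn, which encodes vitronectin, was at -0.11 ± 0.079 with 11 libraries and at 0.066 with the 8 male ones, and Higd1b at -0.13 ± 0.14 and -0.0013. The median of the 8 pericyte genes was -0.066, with 6 lower and 2 higher.

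All 4 contractile genes had lower means in the libraries labelled cKO, with a median of -0.22, and none passed the test over all genes. Acta2, smooth muscle alpha-actin, had 13.99, 11.1, 10.1, 13.4, 14.3 and 17.7 CPM in replicates 1 to 6 labelled cKO, against 21.4, 13.5, 15.9, 20.6 and 13.9 CPM in WT replicates 1 to 5. The 2 male WT libraries, replicates 2 and 5, lay within the range of the libraries labelled cKO, as did the female replicate 3, while the female replicates 1 and 4 were above it. The log2 difference was -0.35 ± 0.16 (± SE), with 95% limits of -0.69 to -0.0045 (edgeR, adjusted p = 0.537), and -0.029 in the male libraries. Myh11, the smooth muscle myosin heavy chain, had 12.9, 10.1, 9.70, 8.23, 9.77 and 10.3 CPM in replicates 1 to 6 labelled cKO and 12.7, 11.6, 11.4, 14.5 and 10.57 CPM in WT replicates 1 to 5. Here replicate 1 labelled cKO lay among the WT libraries and the other 5 below them. On the log2 scale it was -0.26 ± 0.10 (± SE; edgeR, adjusted p = 0.476), and -0.12 in the male libraries.

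Tagln, the actin-binding protein SM22, was at -0.17 ± 0.15 and Des, the intermediate filament desmin, at -0.14 ± 0.14 (log2 ± SE), with signs that turned to 0.029 and 0.048 in the 8 male libraries. The mean centred level of the 4 genes was 0.32, 0.13 and 0.32 in the female WT replicates 1, 3 and 4, against -0.0057 and -0.13 in the male WT replicates 2 and 5. The libraries labelled cKO ran from -0.28 to -0.071 but for replicate 6 at 0.19. For these genes the difference between the labels and the difference by sex cannot be told apart with 2 male WT libraries. Of the exon bases of Tagln 67.9% also belong to genes on the other strand, among them Pcsk7 (-0.19, log2), and whether the authors counted by strand is not given in the sources used here. Its count is therefore uncertain, and so to a lesser extent are those of Abcb1a, Notch3, Des, Abcc9, Slc2a1 and Eng, which share fewer bases in the same way. Acta2 is close in sequence to the other actin genes, so reads they share make its count uncertain too.

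**Figure D4:**
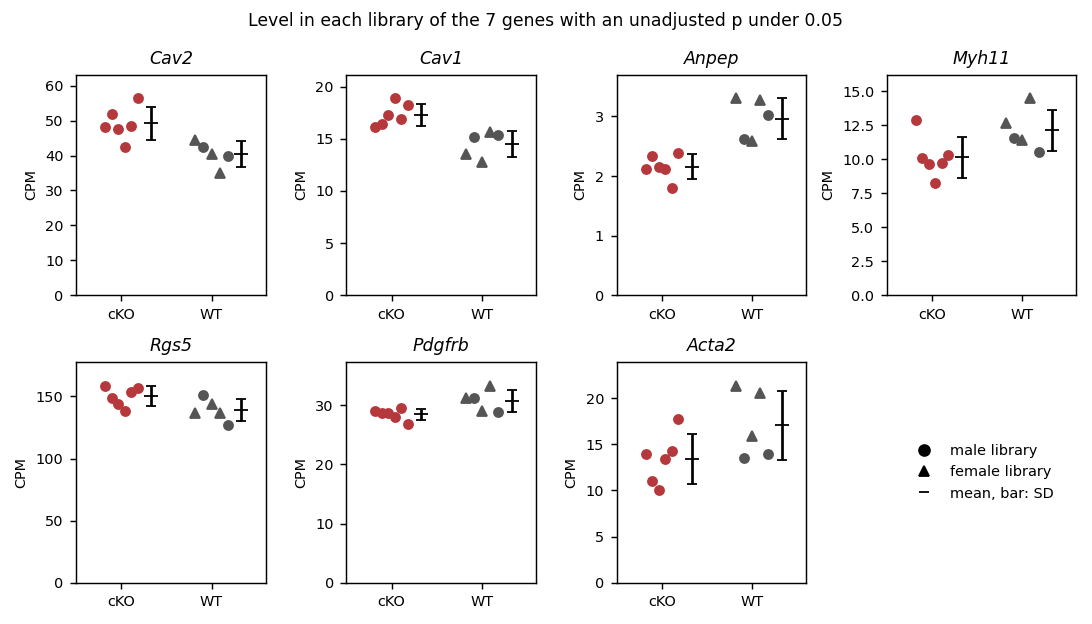
CPM in each library of the 7 vascular genes with an unadjusted p under 0.05 (circles male, triangles female libraries), with the mean and bars of 1 SD beside them, cKO left of WT. Cav1 and Anpep show no overlap between the groups, and for Acta2 the 2 male WT libraries lie among those labelled cKO.

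Genes of the same pathways were read from the same fit, and none passed the test over all genes (edgeR, lowest adjusted p = 0.349). At an unadjusted p under 0.05 there were 11 lower and 9 higher among the 117 tested, where 5.35% of all genes were lower and 3.84% higher. Notch signalling sets arterial identity and mural maturation. Of 11 genes of this pathway other than Notch3 (ligands, receptors, targets and the partner Rbpj), 8 were lower and 3 higher. Their median log2 fold change was -0.10 beside -7.9e-05 for all genes. An unadjusted p under 0.05 was reached by 4 lower and 0 higher of the 11, beside 5.35% lower and 3.84% higher of all genes. These were the ligands Dll1 (-0.28 ± 0.088), Jag1 (-0.39 ± 0.14) and Dll4 (-0.36 ± 0.13) and the receptor Notch1 (-0.20 ± 0.063, log2 ± SE). In the 8 male libraries the 4 were at -0.24 ± 0.13, -0.29 ± 0.19, -0.24 ± 0.19 and -0.27 ± 0.090 (log2 ± SE). None of them passed there (edgeR, adjusted p from 0.854 to 0.880), and the list's median was -0.11. Dll1 averaged 6.70 ± 0.663 CPM in those labelled cKO, against 8.13 ± 0.645 CPM in WT (mean ± SD, n = 6 and 5). Every library labelled cKO was below every WT library for Dll1, as for 0.512% of all genes tested. Among the 117 pathway genes this held for 2, Dll1 and Smad7, and the reverse for 0. Neurons and astrocytes express some of these genes too.

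In the VEGF, angiopoietin and apelin list the median was -0.0054 (7 of 11 lower and 4 higher), and -0.022 in the 8 male libraries. Angpt1, the TIE2 ligand, was at 0.31 ± 0.11, Vegfc, a lymphatic growth factor, at -0.21 ± 0.11, and Angpt2, the context-dependent TIE2 antagonist, at -0.33 ± 0.19 (log2 ± SE), with 0.30, -0.12 and -0.14 in the male libraries. The PDGF, TGF-beta and BMP list had a median of 0.046 (5 of 13 lower and 8 higher), and of 0.031 in the 8 male libraries. Smad7, an inhibitor of TGF-beta signalling, was at -0.20 ± 0.062 (log2 ± SE). Every library labelled cKO was below every WT library for Smad7, as for 0.512% of all genes tested. The receptors Tgfbr1 and Bmpr2 were at 0.14 ± 0.061 and 0.13 ± 0.056 (log2 ± SE). In the male libraries Smad7 was at -0.22, Tgfbr1 at 0.14 and Bmpr2 at 0.031. Wnt signalling at the barrier had a median of -0.022 (8 of 13 lower and 5 higher), and of -0.037 in the 8 male libraries, with its receptor Fzd4 at -0.16 ± 0.067, the ligand Wnt7b at 0.14 ± 0.059, the Wnt7 co-receptor Reck at -0.20 ± 0.086 and the Norrin co-receptor Tspan12 at 0.18 ± 0.083 (log2 ± SE). In the male libraries Fzd4 was at -0.17, Wnt7b at 0.18, Reck at -0.15 and Tspan12 at 0.16. Other tight junction genes had a median of 0.061 (3 of 7 lower and 4 higher), and of 0.048 in the 8 male libraries. F11r, the junctional adhesion molecule A, was at 0.20 ± 0.091 (log2 ± SE), and at 0.26 in the male libraries.

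Further endothelial genes, 28 in number, had a median of 0.021 (11 of 28 lower and 17 higher), and of 0.048 in the 8 male libraries. Slc39a10, a zinc transporter, had the smallest p among them at 0.13 ± 0.045 (log2 ± SE), and was at 0.091 in the male libraries. Further pericyte and smooth muscle genes had a median of -0.053 (16 of 22 lower and 6 higher), beside 0.015 in the 8 male libraries. The contractile genes Tpm2, a tropomyosin, and Smtn, smoothelin, were at -0.27 ± 0.081 and -0.25 ± 0.095 (log2 ± SE), and at -0.25 and -0.32 in the male libraries. Other contractile genes of this list changed sign there, Cnn1 from -0.28 to 0.16, Myl9 from -0.12 to 0.013 and Cald1 from -0.037 to 0.036. Lmod1 went from -0.15 to -0.028. Mylk, the myosin light chain kinase, was at 0.20 ± 0.076, and Ednrb, an endothelin receptor that astrocytes also express, at 0.26 ± 0.071 (log2 ± SE). In the male libraries Mylk was at 0.26 and Ednrb at 0.24. Basement membrane genes had a median of -0.033 (8 of 12 lower and 4 higher), and of -0.0059 in the 8 male libraries. Agrn, agrin, was at -0.18 ± 0.068 (log2 ± SE), and at -0.23 in the male libraries.

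Markers of neighbouring cells also differed in level between the libraries, though none passed edgeR's test. Markers of meningeal and perivascular fibroblasts (10 of 12 lower and 2 higher, median -0.54, and -0.18 with 7 lower in the 8 male libraries) summed to 114 to 204 CPM in those labelled cKO and 141 to 216 CPM in WT. With the 11 libraries DESeq2 called 4 of these 12, all lower, beside 0.278% of all genes in either direction, and edgeR called none. The 4 were Slc13a4, Igf2, Aldh1a2 and Slc6a13, at -0.76, -0.56, -0.93 and -0.62 (log2, edgeR). In the 8 male libraries these 4 were at -0.40, -0.30, -0.35 and -0.11. Perivascular macrophage markers (6 of 6 lower and 0 higher, median -0.34, and -0.10 with 3 lower in the 8 male libraries) summed to 7.69 to 9.43 CPM in those labelled cKO and 7.996 to 12.7 CPM in WT. With the 11 libraries Lyve1 was at -0.69 ± 0.20 and F13a1 at -0.32 ± 0.13 (log2 ± SE). In the male WT replicate 2 the mean centred levels of the fibroblast and macrophage lists were -0.32 and -0.22, with Anpep at 2.62 CPM. In the male WT replicate 5 they were 0.24 and 0.22, with Anpep at 3.02 CPM, and both Anpep values were above all 6 libraries labelled cKO. Astrocyte markers (0 of 6 lower and 6 higher, median 0.21, and 0.19 with 0 lower in the 8 male libraries) summed to 7126 to 9205 CPM in those labelled cKO and 5641 to 6848 CPM in WT, with Mlc1 at 0.16 ± 0.045, Gja1 at 0.21 ± 0.061 and Aqp4 at 0.26 ± 0.092 (log2 ± SE). Most of this sum is Slc1a2, the glutamate transporter GLT-1 (0.22 ± 0.066), and Gfap, the astrocyte intermediate filament (1.01 ± 0.46; log2 ± SE). Gfap had 667, 2354, 969, 1529, 769.6 and 3362 CPM in replicates 1 to 6 labelled cKO, against 1283, 680.4, 690.4, 694 and 649 CPM in WT replicates 1 to 5, so that replicates 2 and 6 labelled cKO stood highest and the groups overlapped. The mean centred level of the 6 markers was highest in replicates 6, 2 and 4 labelled cKO, of which replicates 6 and 2 had the highest Cav2 of all libraries and replicate 4 the lowest Cav2 among those labelled cKO. Choroid plexus markers (6 of 8 lower and 2 higher, median -0.083, and -0.26 with 7 lower in the 8 male libraries) summed to 81.4 to 252 CPM in those labelled cKO and 90.3 to 158 CPM in WT. Red blood cell markers (0 of 5 lower and 5 higher, median 0.16, and -0.053 with 4 lower in the 8 male libraries) summed to 95.3 to 150.3 CPM in those labelled cKO and 90.9 to 149.6 CPM in WT. Markers of vessels without a barrier, Plvap, Cd36 and Esm1, (1 of the 2 tested lower and 1 higher, median -0.11, and 0.0027 with 1 lower in the 8 male libraries) summed to 10.3 to 12.4 CPM in those labelled cKO and 11.6 to 14.5 CPM in WT. Plvap was at -0.25 ± 0.089 (log2 ± SE) with the 11 libraries. Neuron markers (3 of 7 lower and 4 higher, median 0.0045, and 0.0018 with 3 lower in the 8 male libraries) summed to 3844 to 4660.2 CPM in those labelled cKO and 3962 to 4112 CPM in WT. None of the markers was at 0 reads in any library, and their part in the values of Anpep, Cav1, Cav2 and the contractile genes was not tested.

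**Figure D5:**
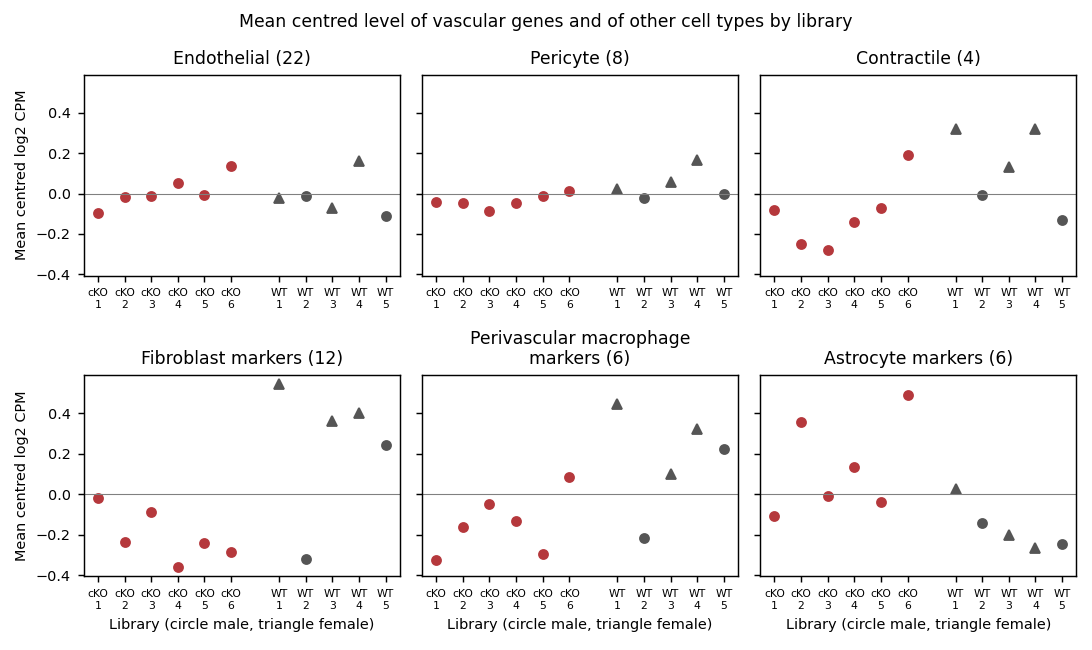
Mean centred log2 CPM of the endothelial, pericyte and contractile genes (top) and of markers of fibroblasts, perivascular macrophages and astrocytes (bottom) in each library, cKO left of WT, circles male and triangles female. The female WT libraries are high for contractile genes and fibroblast markers, and replicate 6 labelled cKO is high for endothelial, contractile and astrocyte genes.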

How the data were processed

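The deposited table holds whole-number counts of reads per Ensembl gene, not normalized, used as the authors deposited them. Per the labels' protocols, libraries were strand-marking (dUTP) preparations of polyadenylated RNA, and per the submitters' processing notes bcl2fastq 2.17.1.14 and the build mm10 were used. Neither aligner, counting tool nor annotation is named there. Symbols and coordinates are from GENCODE M21 (mm10); 30566 of 30681 IDs matched a symbol.

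Groups are the genotypes of the labels. Genes were filtered with filterByExpr and scaled by TMM, CPM and CPM per kilobase of merged exons were computed here, and edgeR 4.0.16 (R 4.3.3) gave 2-sided robust quasi-likelihood F tests with Benjamini-Hochberg adjustment over all 16587 genes and a threshold of 0.05. Standard errors are the fold change over the root of F, intervals are at 95%, and the common biological coefficient of variation was 9.56%. Mean centred levels of lists use log2 CPM with a prior count of 2. The centred values drawn for single genes use log2 CPM without a prior count. No replicate pair was alike within sampling noise (lowest chi-square per degree of freedom 5.59). Sex was taken from the counts of Xist and 4 genes of the Y chromosome. The scripts were tested on simulated data.

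The 34 genes and 15 further lists were chosen with earlier results of these data known. Values in every library are given for genes with an unadjusted p under 0.05 and for the highest per kilobase in each role group. Of the further lists up to 4 genes of smallest p are named. Gfap, Cnn1, Myl9, Cald1 and Lmod1 were added after their values were seen. Alternatives were DESeq2 1.42.0 (test and size factors), no filter, a replicate block, a sex term, the male libraries, and each library left out.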

Additional observations from a re-analysis of the deposited data

Results flagged for a closer look

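Of 200 groups of libraries examined for 1 value far from the rest (100 genes and group means, each in both groups), 10 held one. A rate of 1 in 20 gives that number. The groups are not independent, as the means are over genes also examined singly, and genes outside the 34 were picked by p. Whether the flagged values are chance was therefore not settled. WT replicate 4 stood high for Cdh5 (14.8 CPM, against 11.6 to 12.3 CPM in the remaining WT replicates) and for the mean centred log2 level of the 5 growth and stability receptors (0.25, against -0.12 to -0.026 in the remaining WT replicates). Replicate 6 labelled cKO stood high for Emcn (8.39 CPM, against 6.47 to 7.04 CPM in the remaining replicates labelled cKO) and for the astrocyte water channel gene Aqp4 (364 CPM, against 252 to 285 CPM in the others). Among genes outside the 34, WT replicate 5 was high for the haemoglobin genes Hba-a1 (18.2 CPM, against 11.2 to 12.9 CPM) and Hba-a2 (11.6 CPM, against 6.54 to 7.45 CPM in the remaining WT replicates). WT replicate 1 was high for Mylk (29.4 CPM, against at most 25.4 CPM) and WT replicate 2 low for Angpt2 (0.953 CPM, against 1.496 to 1.62 CPM in the remaining WT replicates). Replicate 5 labelled cKO was high for the choroid plexus gene Otx2 (2.43 CPM, against 0.984 to 1.41 CPM), and replicate 1 labelled cKO for the fibroblast gene Slc13a4 (3.47 CPM, against 2.43 to 2.81 CPM in the remaining replicates labelled cKO).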

How the results depend on the processing

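No vascular gene passed in any of the 17 alternatives, where the smallest adjusted p was 0.0533 (Cav2, DESeq2). Cav1, Cav2, Rgs5, Anpep, Pdgfrb, Acta2 and Myh11 kept their direction in all 17, with log2 fold changes of 0.18 to 0.28 (Cav1), 0.23 to 0.32 (Cav2), 0.080 to 0.14 (Rgs5), -0.51 to -0.38 (Anpep), -0.13 to -0.075 (Pdgfrb), -0.45 to -0.029 (Acta2) and -0.34 to -0.12 (Myh11). Over all genes, where the 11 libraries gave 0 calls by edgeR and 1524 at an unadjusted p under 0.05, there were 46 with DESeq2's test, 3 without the filter, and 0 to 14 with 1 library left out (14 without WT replicate 5, 2 without WT replicate 2, 1 without WT replicate 1). The median of the pericyte and smooth muscle genes moved to -0.0077 with a sex term and -0.0048 in the male libraries, that of the pericyte genes to -0.0077 and -0.0048, and that of the contractile genes to -0.0031 and -0.00014. That of the receptors moved to 0.12 in the male libraries.

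The sign turned at least once in 20 of the 34 genes, none with a log2 fold change beyond 0.199 in size, and the cause was not tested. It did so (log2) with DESeq2 size factors for Notch3 (0.0030), with DESeq2's test for Notch3 (0.0037), without the filter for Ocln 0.0025, Tek 0.0032 and Notch3 0.0078, with a sex term for Pecam1 0.031, Ocln 0.12, Flt1 -0.013, Tek 0.15, Tie1 0.011, Slc2a1 0.027, Slco1a4 -0.0023, Abcb1a 0.0010, Vwf 0.0064, Vtn 0.063, Tagln 0.026 and Des 0.045, and in the male libraries for Pecam1 0.033, Ocln 0.12, Flt1 -0.010, Tek 0.15, Tie1 0.014, Slc2a1 0.029, Abcb1a 0.0036, Vwf 0.0092, Vtn 0.066, Tagln 0.029 and Des 0.048. Leaving out 1 library at a time gave Pecam1 -0.069 to 0.027, Cdh5 -0.016 to 0.10, Ocln -0.075 to 0.046, Flt1 -0.022 to 0.039, Kdr -0.0081 to 0.15, Tek -0.072 to 0.063, Slco1a4 -0.018 to 0.065, Abcb1a -0.062 to 0.053, Mfsd2a -0.075 to 0.024, Slc7a5 -0.0054 to 0.068, Ly6c1 -0.045 to 0.072, Kcnj8 -0.0049 to 0.12, Abcc9 -0.085 to 0.013 and Notch3 -0.026 to 0.021. Same-numbered libraries did not deviate together (correlations of -0.32 to 0.21, 2 of 5 over 0.1, and 2 of 10 libraries closest to their own number). The replicate block called 0 genes and turned the sign of Cdh5 -0.0014, Flt1 -0.021, Abcb1a 0.0032, Ly6c1 -0.041 and Notch3 0.020. At a median standard error of 0.077 (log2) and 2 male WT libraries, small differences were not detectable.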
